A study of Mus musculus with 47 samples.

Results

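Mt1, Mt2 and Mt3 are the metallothionein genes measured in hypothalamic tissue from Lep ob/ob mice after a single intracerebroventricular (icv) injection of FGF1 or vehicle. They were taken by name from the table of read counts and make up 3 of its 14221 genes. All 3 had counts in every one of the 47 libraries, and no filter on low counts removed any of them. Mt4, the family's member of stratified epithelium, was not analysed here.

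Metallothioneins are small proteins whose many cysteines bind zinc and copper, and they buffer free metal and scavenge oxidants. Mt1 and Mt2 are made in most tissues, in the brain mainly by astrocytes and other glia, and their transcription is known to be raised by zinc through the transcription factor MTF1, by glucocorticoids, by cytokines of the IL-6 family acting through STAT3, and by oxidative stress. Mt3, also known as growth inhibitory factor, is the brain form of the family, and its level is known to respond much less to metals.

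The question the groups address is how the hypothalamus answers icv FGF1 as food intake first falls and blood glucose then normalizes. Every mouse was a male Lep ob/ob mouse, which lacks leptin throughout the body and is obese, and each library came from the hypothalamus of 1 mouse. The labels give an age of 11 weeks for the mice of Day 1, Day 5 and Day 42 alike. Whether this is the age at injection or at collection is not settled here. FGF1 was given as 3 µg of the recombinant human protein in phosphate-buffered saline, and controls received the vehicle alone. FGF1-injected mice were taken on Day 1 (n = 10), Day 5 (n = 9) and Day 42 (n = 5). Vehicle-injected mice labelled non-diabetic and pair-fed to the FGF1 mice were taken on Day 1 (n = 4), Day 5 (n = 7) and Day 42 (n = 5), and a further vehicle group labelled diabetic and pair-fed was taken on Day 5 (n = 7). The labels do not say in what the non-diabetic and diabetic vehicle mice differed, since both carried the same genotype. The label non-diabetic is at odds with the paper, which describes the Lep ob/ob mice as diabetic and left out those that were not, so what the controls labelled non-diabetic were is not settled here. The paper describes fewer vehicle mice on Day 5 than the labels do, and which of the labelled groups served as its control is not given in the sources used here, so FGF1 was set against both on Day 5. Each day had a single library preparation code of its own, so differences in level between days cannot be told apart from differences between preparations, and FGF1 mice and vehicle groups were tested against each other within a day. The only test across days was that of the difference between the FGF1 effects of 2 days. Levels set side by side across days are a description with no test.

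The 47 libraries held between 1243280 and 47082403 counts each (median of 19454764). On Day 5, FGF1 replicates 8 and 9 held 30009258 and 27922117 counts, and the other libraries of that day 7579695 to 12451642. Replicate 8 had the most Mt2 of the Day 5 mice (130.8 CPM) and replicate 9 the most Mt3 (146.5 CPM). The shallowest, replicate 1 of the Day 1 FGF1 mice, still held 282 counts of Mt1, 384 of Mt2 and 157 of Mt3. Hypothalamic neuropeptide genes, which mark the dissected tissue, were detected in all 7 groups. One library stood apart by its dissection markers: replicate 5 of the Day 42 FGF1 mice had 595.6 CPM (the count relative to the TMM-normalized library total) summed over the measured markers of forebrain excitatory neurons, where the next highest library had 99.6.

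The 3 genes lie side by side on mouse chromosome 8, all on the plus strand and with 3 exons each (GRCm38, GENCODE vM21). Mt3 spans chr8:94152607-94154146, Mt2 chr8:94172664-94173568 and Mt1 chr8:94179082-94180327. An antisense gene, Gm45774, overlaps Mt2 at chr8:94170748-94173412 on the other strand, so that 254 of the 554 stretches of 50 bases in Mt2 transcripts also occur in it. Gm45774 itself was not analysed here and the strand setting of the counting was not given in the sources used here, so reads of Gm45774 cannot be told apart from reads of Mt2 in that overlap. Mt1 and Mt3 transcripts shared no stretch of 50 bases with another annotated gene.

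The sequences before the starts of the 3 genes are shown because MTF1 binds the metal response element, whose core is TGCACNC or TGCGCNC, and because Mt1 and Mt2 carry many copies of it. Each is the 250 bases before the RefSeq start on the plus strand (GRCm38.p6), with matches to either core, on either strand, in capitals.
Mt1, chr8:94178839-94179088: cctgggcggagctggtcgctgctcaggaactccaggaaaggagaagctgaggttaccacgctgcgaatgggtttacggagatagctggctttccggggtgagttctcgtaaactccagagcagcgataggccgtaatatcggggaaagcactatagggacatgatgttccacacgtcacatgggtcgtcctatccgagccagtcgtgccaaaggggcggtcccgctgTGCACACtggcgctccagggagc
Mt2, chr8:94172368-94172617: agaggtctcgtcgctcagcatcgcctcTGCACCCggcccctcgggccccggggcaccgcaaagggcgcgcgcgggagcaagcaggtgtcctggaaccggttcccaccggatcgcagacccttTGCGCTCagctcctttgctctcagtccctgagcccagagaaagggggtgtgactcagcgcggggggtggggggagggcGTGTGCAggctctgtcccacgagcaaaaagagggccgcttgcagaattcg
Mt3, chr8:94152357-94152606: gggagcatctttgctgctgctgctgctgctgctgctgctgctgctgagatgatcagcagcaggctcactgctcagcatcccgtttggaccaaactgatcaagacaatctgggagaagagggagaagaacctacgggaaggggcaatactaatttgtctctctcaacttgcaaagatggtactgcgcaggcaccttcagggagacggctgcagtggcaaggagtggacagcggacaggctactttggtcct

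The Mt2 window held 3 cores, the Mt1 window 1 core and the Mt3 window 0 cores. Of 32851 mouse promoter windows of this length, 21.4% held at least 1 core and 1.26% held at least 3. The Mt2 window also held the antioxidant response element core TGACNNNGC once, a match found in 10.2% of windows. A match to the STAT spelling TTCNNNGAA (7.02% of windows) or to the E-box CACGTG (6.02%) was in none of the 3 windows, which says only that these letters are not in these 250 bases.

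Further cores lay between the RefSeq start and the start codon: 4 in the 222 bases of Mt1, 4 in the 230 bases of Mt2 and 3 in the 193 bases of Mt3. The RefSeq start is an annotation, and where transcription starts in this tissue was not tested. The GENCODE start of Mt2, at 94172664, lies after the Mt2 core at bases 5 to 11. Cores in this stretch may thus be promoter sequence that is not transcribed, and the windows above may not be the promoters in use. Sites of 30 bases that hold cores are shown to let the copies in the 3 genes be compared, again with the cores in capitals. The 2 sites of Mt2 overlap and hold 1 core each, so that Mt1 and Mt2 both carry cores close together. Not every site is shown. Counted from the RefSeq start, the cores of Mt3 lie at bases 28 to 34, 55 to 61 and 87 to 93. Those of Mt2 lie at 5 to 11, 59 to 65, 78 to 84 and 112 to 118. How many other genes hold as many cores in this stretch was not computed.
Mt1, chr8:94179089-94179118: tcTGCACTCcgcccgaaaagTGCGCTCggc
Mt1, chr8:94179168-94179197: ctgctGGGTGCAaacccttTGCGCCCggac
Mt2, chr8:94172671-94172700: agggcGTGTGCAggcggcgggggcgcgtgc
Mt2, chr8:94172690-94172719: ggggcGCGTGCAtggtgccttccacccggg
Mt3, chr8:94152629-94152658: agcagTGCACACacacggagagcaggcgct

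On Day 1, Mt1 and Mt2 rose after FGF1, Mt1 2.78-fold and Mt2 3.51-fold, and every FGF1 mouse stood above every vehicle mouse for both genes. Mt3 was 1.41-fold higher on average, with overlapping groups, and did not reach the fold change required for a call. A gene is called here when its Benjamini-Hochberg adjusted p in the edgeR quasi-likelihood test is under 0.05 and its log2 fold change (log2 FC) is above 0.5 in size.

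In the 4 vehicle mice of Day 1, Mt1 stood at 121, 55.3, 59.2 and 96.6 CPM. In the 10 FGF1 mice it ran from 138 to 407 CPM with a median of 203. All 10 FGF1 mice were above the highest vehicle mouse, but the lowest of them only slightly so. The log2 FC of Mt1 was 1.47 (SE 0.26, edgeR adjusted p = 6.69e-06). In an exact permutation test of the 2 groups (two-sided, on log2 of CPM plus 0.5), p was 0.000999 for Mt1, the smallest that 10 against 4 mice can give.

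Mt2 stood at 121, 51.0, 57.1 and 85.5 CPM in the same 4 vehicle mice and ran from 155 to 476 CPM in the FGF1 mice, with a median of 271. The groups again did not overlap, and the gap between the highest vehicle and the lowest FGF1 mouse was wider than for Mt1. The log2 FC of Mt2 was 1.81 (SE 0.30, edgeR adjusted p = 2.05e-06), and the exact permutation p was 0.000999 as well.

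Mt3 stood at 151, 70.3, 92.7 and 142 CPM in the vehicle mice and ran from 99.8 to 232 CPM in the FGF1 mice, with a median of 167. Of the 10 FGF1 mice, 6 were above every vehicle mouse. The log2 FC of Mt3 was 0.49 (SE 0.20, edgeR adjusted p = 0.0439), just under the size required for a call, and the exact permutation p was 0.0709. Leaving out single mice of Day 1 moved the log2 FC of Mt3 between 0.32 and 0.66, and it was called in 7 of the 14 fits.

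Against all genes of the Day 1 comparison, 19.5% were called, 11.5% in the upward direction, and 7.56% had every FGF1 mouse above every vehicle mouse. A higher log2 FC than that of Mt1 was found in 1.88% of genes and than that of Mt2 in 1.29%, whereas 12.4% of genes exceeded Mt3. The response of Mt1 and Mt2 was therefore near the upper end of a broad response, and that of Mt3 was not.

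**Figure D1:**
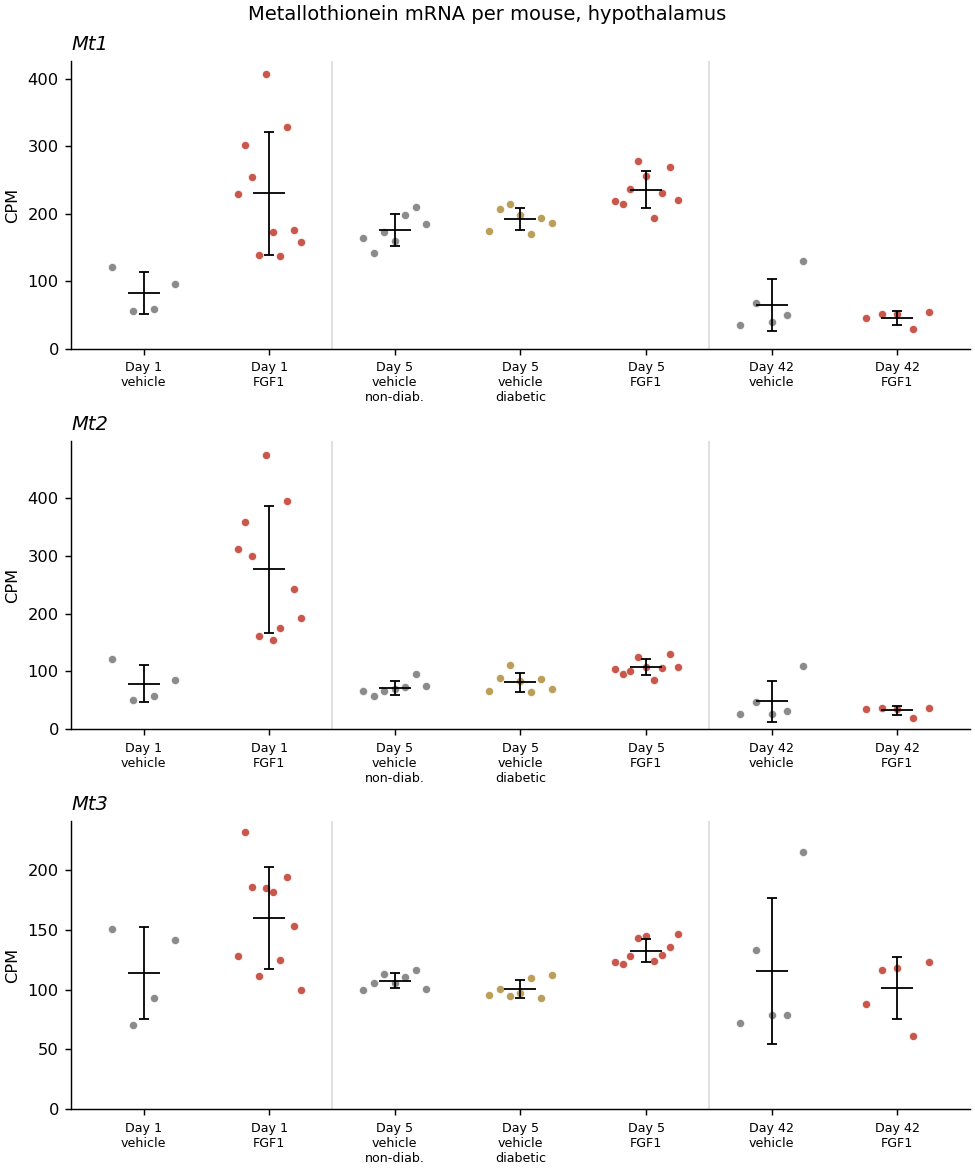
CPM of Mt1, Mt2 and Mt3 in every mouse. The vertical axes are linear and start at 0, each point is 1 mouse, horizontal lines mark the group mean and error bars the SD. For Mt1 and Mt2 the 10 Day 1 FGF1 mice all lie above the 4 vehicle mice of Day 1, for Mt3 the Day 5 FGF1 mice lie above both vehicle groups, and on Day 42 vehicle replicate 5 lies above the other mice of that day, with 131 CPM of Mt1.

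The ratio of 2 genes within a library does not change with the total count, and by this measure the members parted on Day 1. Mt1 over Mt3 was 1.44 ± 0.38 (SD, n = 10) after FGF1 and 0.727 ± 0.079 (SD, n = 4) after vehicle. All 10 FGF1 mice were above all vehicle mice (1.93-fold from the mean log2 ratios, exact permutation p = 0.000999). Mt2 over Mt3 was 1.74 ± 0.51 (SD, n = 10) against 0.686 ± 0.095 (SD, n = 4). Again no mouse overlapped (2.45-fold, exact permutation p = 0.000999).

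Mt1 and Mt2 also parted from each other on Day 1, by less. Mt2 over Mt1 was 1.20 ± 0.13 (SD, n = 10) after FGF1 and 0.943 ± 0.051 (SD, n = 4) after vehicle, a 1.27-fold difference (exact permutation p = 0.004). The FGF1 group overlapped the vehicle group through 1 mouse, replicate 6, at a ratio of 0.893. Across the 15 ratio tests, the p-values are given without adjustment.

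On Day 5, all 3 genes were higher on average in FGF1 mice than in both vehicle groups, by 1.23-fold to 1.5-fold, and none was called in the fit over all 47 mice. Mt3 was the most clearly separated, with every FGF1 mouse above every vehicle mouse of either group. Mt1 ran from 194 to 278 CPM in the 9 FGF1 mice with a median of 231. It ran from 141 to 210 CPM (median 173) in the 7 non-diabetic vehicle mice and from 170 to 214 CPM (median 193) in the 7 diabetic vehicle mice. Against each vehicle group, 8 of the 9 FGF1 mice were above every vehicle mouse.

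Mt2 ran from 84.7 to 131 CPM in the FGF1 mice, with a median of 105. The non-diabetic vehicle mice ran from 56.9 to 94.6 CPM (median 69.1), and 8 of the 9 FGF1 mice were above all of them. The diabetic vehicle mice ran from 63.6 to 110 CPM (median 83.2), and only 2 of the 9 FGF1 mice were above all of these. Mt3, in turn, ran from 121 to 146 CPM in the FGF1 mice with a median of 129. The non-diabetic vehicle mice reached at most 116 CPM of Mt3 (lowest 99.6, median 106) and the diabetic ones at most 112 CPM (lowest 92.8, median 97.4).

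Against the non-diabetic vehicle group the edgeR log2 FC was 0.42 for Mt1 (SE 0.20, adjusted p = 0.283), 0.59 for Mt2 (SE 0.24, adjusted p = 0.169) and 0.31 for Mt3 (SE 0.17, adjusted p = 0.391). In this comparison 1.54% of genes were called, 1.31% upward, and 2.38% had every FGF1 mouse above every vehicle mouse. Against the diabetic vehicle group it was 0.30 for Mt1 (SE 0.20, adjusted p = 0.432), 0.40 for Mt2 (SE 0.23, adjusted p = 0.335) and 0.40 for Mt3 (SE 0.17, adjusted p = 0.146). There 2.85% of genes were called, 2.36% upward, and 3.63% had every FGF1 mouse above every vehicle mouse. The 2 comparisons share the same 9 FGF1 mice.

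These SEs come from a spread shared by all days, and the spread was smaller on Day 5 than on the other days. The SD of log2 CPM within the Day 5 groups was 0.12 to 0.19 for Mt1, 0.19 to 0.28 for Mt2 and 0.08 to 0.11 for Mt3, whereas on Day 1 it was 0.54 to 0.55 for Mt1, 0.57 to 0.58 for Mt2 and 0.40 to 0.52 for Mt3. The exact permutation test uses the Day 5 mice alone. Against the non-diabetic vehicle group it gave p = 0.00035 for Mt1, p = 0.000175 for Mt2 and p = 8.74e-05 for Mt3, the last being the smallest that 9 against 7 mice can give.

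Against the diabetic vehicle group the exact permutation p was 0.00192 for Mt1, 0.00428 for Mt2 and 8.74e-05 for Mt3. When edgeR was fitted to the Day 5 mice alone, Mt1 was 0.43 higher in log2 FC than in the non-diabetic group (adjusted p = 9.77e-05), Mt2 0.60 higher (adjusted p = 0.000121) and Mt3 0.32 higher (adjusted p = 1.29e-05). Of these Mt2 passed the required size and was called, beside 2.6% of all genes. The Day 5 call of Mt2 thus changes with the mice that share the estimate of spread, while the fold changes hardly moved.

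**Figure D2:**
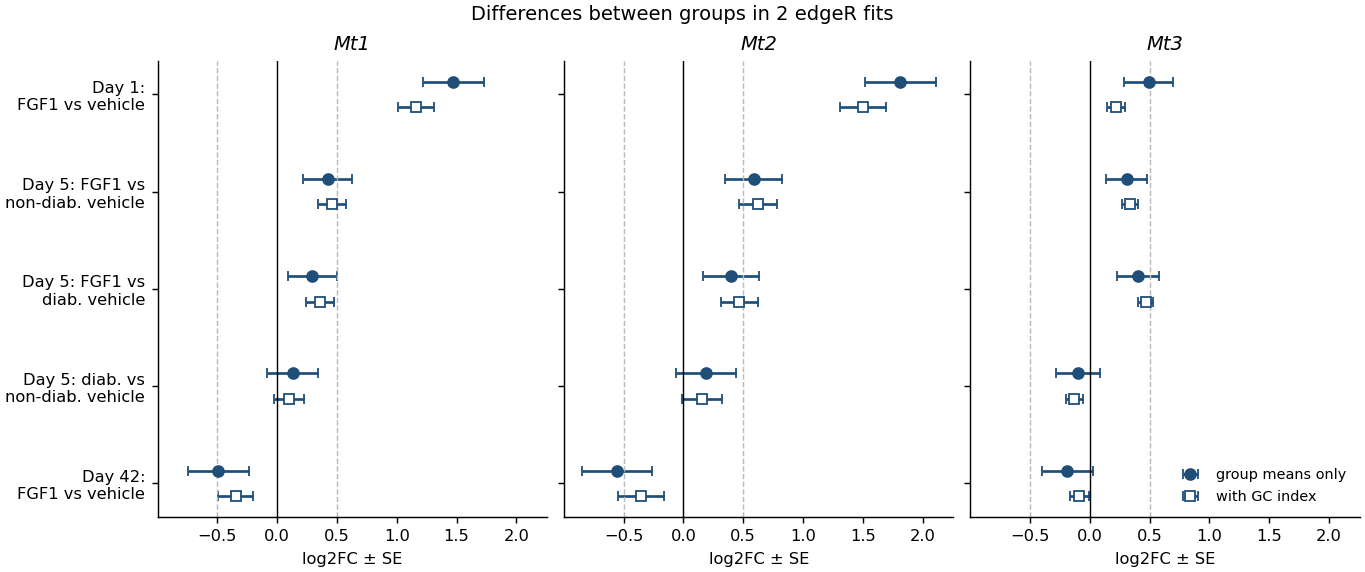
Log2 FC of Mt1, Mt2 and Mt3 in the 5 comparisons within a day, with bars of 1 SE. Filled circles are the edgeR fit of the group means, open squares the fit with the GC index of each library (explained further on) as a covariate, and dashed lines mark a log2 FC of 0.5 in either direction. The panels share 1 horizontal scale, on which the Day 1 values of Mt1 and Mt2 (1.47 and 1.81) stand far to the right of all others, and the Day 42 values lie below 0.

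No member was called between the 2 vehicle groups of Day 5. The log2 FC of diabetic against non-diabetic vehicle mice was 0.13 for Mt1 (95% interval -0.29 to 0.55), 0.19 for Mt2 (-0.30 to 0.68) and -0.10 for Mt3 (-0.46 to 0.26), all with an edgeR adjusted p of 1.0. In this comparison 0% of genes were called, and 193 genes (1.36%) had an unadjusted p under 0.05, and DESeq2 and limma called 0 as well. The exact permutation p was 0.147 for Mt1, 0.210 for Mt2 and 0.0828 for Mt3. It fell under 0.05 for Mt1 without non-diabetic replicate 6 (exact permutation p = 0.0478) and for Mt3 without diabetic replicate 5 or 7 (exact permutation p = 0.0396 and 0.0274), and for Mt2 it ran from 0.0705 to 0.417 over the 14 mice left out in turn. Within libraries, Mt1 over Mt3 was 1.93 ± 0.25 (SD, n = 7) in diabetic and 1.64 ± 0.19 (SD, n = 7) in non-diabetic vehicle mice, 1.18-fold higher, with 5 of the 7 diabetic mice above every non-diabetic one (exact permutation p = 0.0355). Leaving out 1 mouse took that p above 0.05 for 7 of the 14 mice. For Mt2 over Mt3 the exact permutation p was 0.0967 (0.0326 without diabetic replicate 5), and for Mt2 over Mt1 it was 0.591.

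Within the libraries of Day 5, Mt2 rose against Mt1 relative to the non-diabetic vehicle mice only slightly, from a ratio of 0.405 ± 0.029 (SD, n = 7) to 0.453 ± 0.025 (SD, n = 9; exact permutation p = 0.00393). Against the diabetic vehicle mice, at 0.419 ± 0.051 (SD, n = 7), the exact permutation p was 0.0882, and 0.00679 without diabetic replicate 3. Mt2 over Mt3 was 0.805 ± 0.084 (SD, n = 9) after FGF1, 0.663 ± 0.090 (SD, n = 7) in non-diabetic vehicle mice (exact permutation p = 0.0049) and 0.819 ± 0.203 (SD, n = 7) in diabetic ones (exact permutation p = 0.966). The mean log2 ratio of Mt1 over Mt3 differed by 0.12 from the non-diabetic vehicle mice (exact permutation p = 0.126). From the diabetic ones it differed by -0.11 (exact permutation p = 0.184, and 0.0462 without diabetic replicate 5). The parting of Mt1 and Mt2 from Mt3 seen on Day 1 was thus not seen to that extent on Day 5. The 2 vehicle groups gave different answers for Mt2 over Mt3 and opposite directions for Mt1 over Mt3.

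On Day 42, none of the 3 genes was called, and the estimates lay on the other side of 0. The 5 FGF1 mice had 45.7, 50.9, 51.0, 28.8 and 54.7 CPM of Mt1, and the 5 vehicle mice had 35.1, 68.5, 40.3, 49.6 and 131 CPM. Vehicle replicate 5 was the highest mouse of the day for all 3 genes, and FGF1 replicate 4 the lowest. The groups overlapped, with a log2 FC of -0.49 (SE 0.26, edgeR adjusted p = 0.960, exact permutation p = 0.444).

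Mt2 stood at 34.9, 36.4, 35.1, 18.6 and 37.0 CPM in the Day 42 FGF1 mice and at 25, 47.2, 25.5, 31.0 and 109 CPM in the vehicle mice (log2 FC -0.56, SE 0.29, edgeR adjusted p = 0.962, exact permutation p = 0.556). Mt3 stood at 88.1, 116, 118, 61.4 and 123 CPM against 71.8, 133, 78.5, 78.9 and 215 CPM (log2 FC -0.19, SE 0.21, edgeR adjusted p = 1, exact permutation p = 0.786). With 5 against 5 mice the smallest exact permutation p is 0.00794. In this comparison 0% of genes were called, and 776 genes (5.46%) had an unadjusted p under 0.05, and DESeq2 and limma called 0 as well.

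The Day 42 values moved with single mice. Without vehicle replicate 5 the log2 FC was -0.07 for Mt1, 0.01 for Mt2 and 0.16 for Mt3. Without FGF1 replicate 4, the difference of mean log2 CPM of Mt3 was 0.073. Without FGF1 replicate 5, the library with high forebrain markers, the edgeR log2 FC was -0.56 for Mt1, -0.61 for Mt2 and -0.27 for Mt3. Within libraries, Mt1 over Mt3 was 0.460 ± 0.035 (SD, n = 5) after FGF1 and 0.551 ± 0.063 (SD, n = 5) after vehicle (exact permutation p = 0.0317), and the p passed 0.05 when FGF1 replicate 2, 3, 4 or 5 was left out (exact permutation p = 0.0556 without replicate 5). Mt2 over Mt1 was 0.698 ± 0.045 and 0.699 ± 0.085 (SD, n = 5 each; exact permutation p = 0.968). Mt2 over Mt3 was 0.322 ± 0.042 after FGF1 and 0.386 ± 0.072 after vehicle (SD, n = 5 each; exact permutation p = 0.111, and 0.0159 without FGF1 replicate 1).

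**Figure D3:**
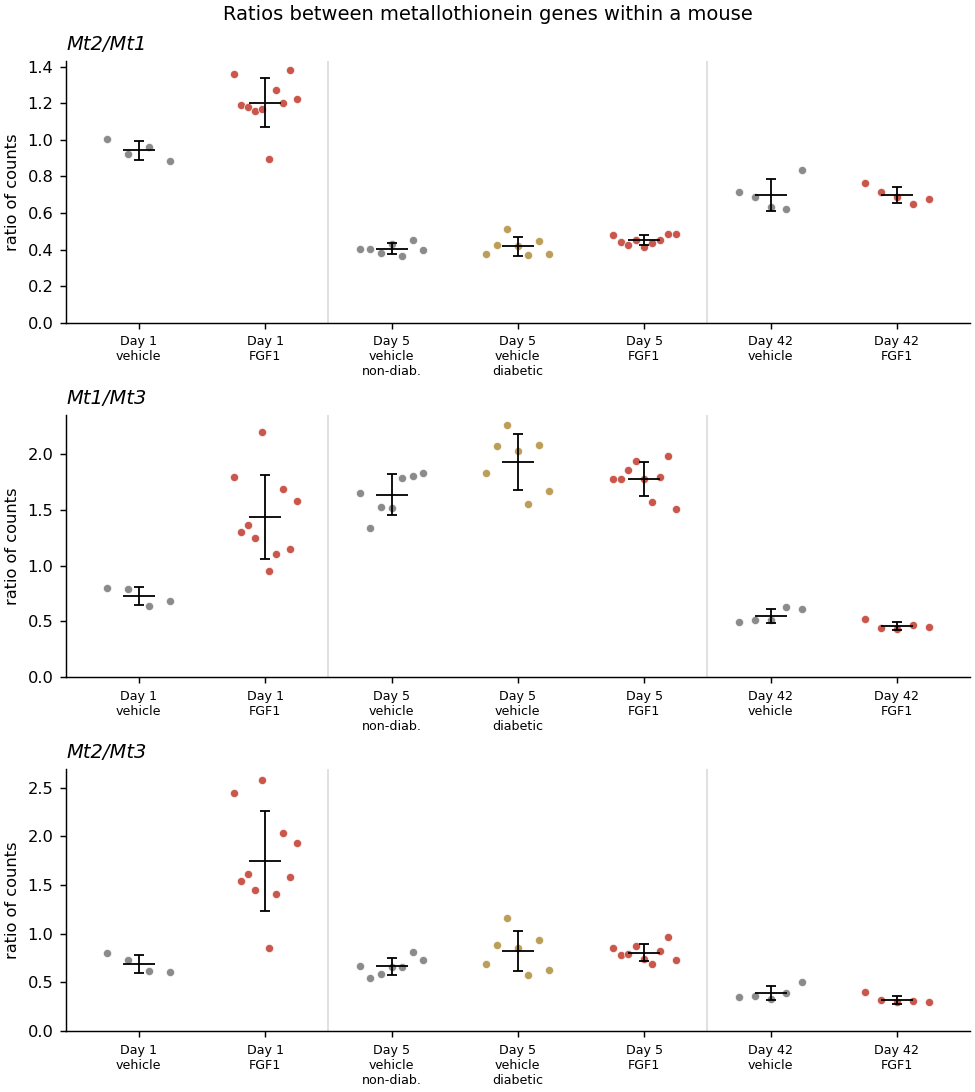
Ratios of the counts of 2 metallothionein genes within each library, by group. Each point is 1 mouse, horizontal lines mark the group mean, error bars the SD, and the vertical axes are linear from 0. Mt1 over Mt3 and Mt2 over Mt3 separate the Day 1 FGF1 mice from the Day 1 vehicle mice without overlap, and Mt2 over Mt1 lies lower on Day 5 (group means of 0.405 to 0.453) than on the other days.

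The FGF1 effect on Mt1 and Mt2 was smaller on the later days than on Day 1, tested as the difference of the effects in the same edgeR fit. From Day 1 to Day 5 (non-diabetic vehicle) the log2 FC fell by 1.05 for Mt1 (SE 0.32, edgeR adjusted p = 0.0106) and by 1.23 for Mt2 (SE 0.36, edgeR adjusted p = 0.00897), and the difference for Mt3 was -0.19 (adjusted p = 0.643). In this test 15.8% of genes were called, 8.52% downward. From Day 1 to Day 42 it fell by 1.97 for Mt1 (adjusted p = 4.31e-05) and by 2.37 for Mt2 (adjusted p = 1.72e-05), and the difference for Mt3 was -0.68 (edgeR adjusted p = 0.0803, called in 6 of 24 fits that each left out 1 mouse, with an adjusted p as low as 0.0317), with 16.4% of genes called, 9.81% downward. Between Day 5 and Day 42 the differences were -0.92 for Mt1, -1.14 for Mt2 and -0.50 for Mt3 (edgeR adjusted p = 0.223, 0.160 and 0.585), with 0.717% of genes called. Without vehicle replicate 5 of Day 42 they were -0.49, -0.58 and -0.14, and over all 26 fits that each left out 1 mouse they ran from -1.07 to -0.49 for Mt1, from -1.31 to -0.58 for Mt2 and from -0.63 to -0.14 for Mt3, with none called. The Day 5 minus Day 1 difference of Mt3 ran from -0.35 to -0.011 over 30 such fits. Each difference sets comparisons from 2 preparations against each other, and within a day FGF1 and vehicle mice shared 1 preparation code.

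Per kilobase of transcript, the order of the 3 genes changed with day and treatment. On Day 1 the FGF1 mice had 542 ± 216 CPM per kilobase of Mt2, 420 ± 166 of Mt1 and 298 ± 80 of Mt3 (SD, n = 10). The vehicle mice of that day had 213 ± 72 of Mt3, 154 ± 63 of Mt2 and 151 ± 57 of Mt1 (SD, n = 4), and the last 2 did not differ beyond their spread. On Day 5 Mt1 led after FGF1 with 429 ± 50 CPM per kilobase, above 248 ± 19 of Mt3 and 209 ± 28 of Mt2 (SD, n = 9), and the same order held in both vehicle groups. On Day 42 Mt3 led in both groups, with 189 ± 49 after FGF1 and 215 ± 114 after vehicle (SD, n = 5 each).

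Mt1 and Mt2 varied together between mice of the same group. In the 10 Day 1 FGF1 mice, r was 0.954 (permutation p = 6e-05, Benjamini-Hochberg adjusted over 12 relations 0.00072) and rho was 0.903 (permutation p = 0.00093, adjusted 0.0112), and r was 0.911 without the 2 mice farthest from the median of Mt1. In the 3 Day 5 groups the r of Mt1 with Mt2 was 0.905, 0.892 and 0.948, with exact permutation p of 0.000912, 0.00675 and 0.000794 (adjusted 0.00365, 0.0202 and 0.00365). Their rho was 0.817, 0.821 and 0.964 (exact permutation p = 0.0108, 0.0341 and 0.00278, adjusted 0.0323, 0.0683 and 0.0167), so the rho of the non-diabetic vehicle mice did not pass after adjustment, and r was 0.779, 0.708 and 0.910 without the 2 farthest mice. Groups of 4 or 5 mice were too small for this.

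The r of Mt3 with Mt1 was lower than that of Mt2 with Mt1 in each of these groups, and the difference between them was not tested. It was 0.747 in the Day 1 FGF1 mice (permutation p = 0.0165, adjusted 0.0395; rho 0.818, permutation p = 0.00625, adjusted 0.025). In the Day 5 groups it was 0.640, 0.504 and -0.429 (exact permutation p = 0.0677, 0.250 and 0.328; rho 0.633, 0.5 and -0.393, exact permutation p = 0.076, 0.267 and 0.396), and none of these passed after adjustment. Without the 2 farthest mice r was 0.757 in the Day 1 FGF1 mice and 0.476, 0.295 and 0.0359 in the Day 5 groups. The r of Mt3 with Mt2 was 0.616, 0.613, 0.499 and -0.579 in the same 4 groups (permutation p, exact on Day 5, adjusted 0.116, 0.127, 0.277 and 0.257). Its rho was 0.636, 0.767, 0.179 and -0.5 (permutation p, exact on Day 5, adjusted 0.0936, 0.0513, 0.713 and 0.320), and without the 2 farthest mice r was 0.826, 0.667, -0.142 and -0.327.

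All 3 genes moved with a property of the libraries that was noticed after the data were seen. The GC index of a library is the median deviation, in log2 CPM from the mean of its day, of the fifth of genes with the highest GC content in their transcripts, minus that of the fifth with the lowest, over the 14180 genes with a known transcript. The transcripts of Mt1, Mt2 and Mt3 have a GC content of 58.1%, 55.6% and 62.3%, higher than 88.5%, 76.9% and 98.2% of genes. The index ran from -0.592 to 0.506 in the Day 1 FGF1 mice, from -0.854 to 0.255 in the Day 1 vehicle mice and from -0.523 to 0.810 in the Day 42 vehicle mice, with replicate 5 the highest of all 47 libraries, but only from -0.111 to 0.121 over the Day 5 groups. The index is computed from the same counts as the genes, so its relations are given as a description.

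Over the 47 mice, the deviations of the 3 genes from their group means had an r with the deviations of the index of 0.816 for Mt1, 0.735 for Mt2 and 0.933 for Mt3, as a description with no test. On Day 42 alone these were 0.977, 0.957 and 0.981 over 10 mice, and on Day 5 they were 0.156, 0.070 and -0.186 over 23 mice. With the part that follows the index removed, the r of Mt1 with Mt2 was 0.924 (0.962 before), and that of Mt3 with Mt1 was 0.414 (0.847 before). Mt1 and Mt2 thus kept most of their shared variation, and Mt3 lost most of what it shared with them.

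**Figure D4:**
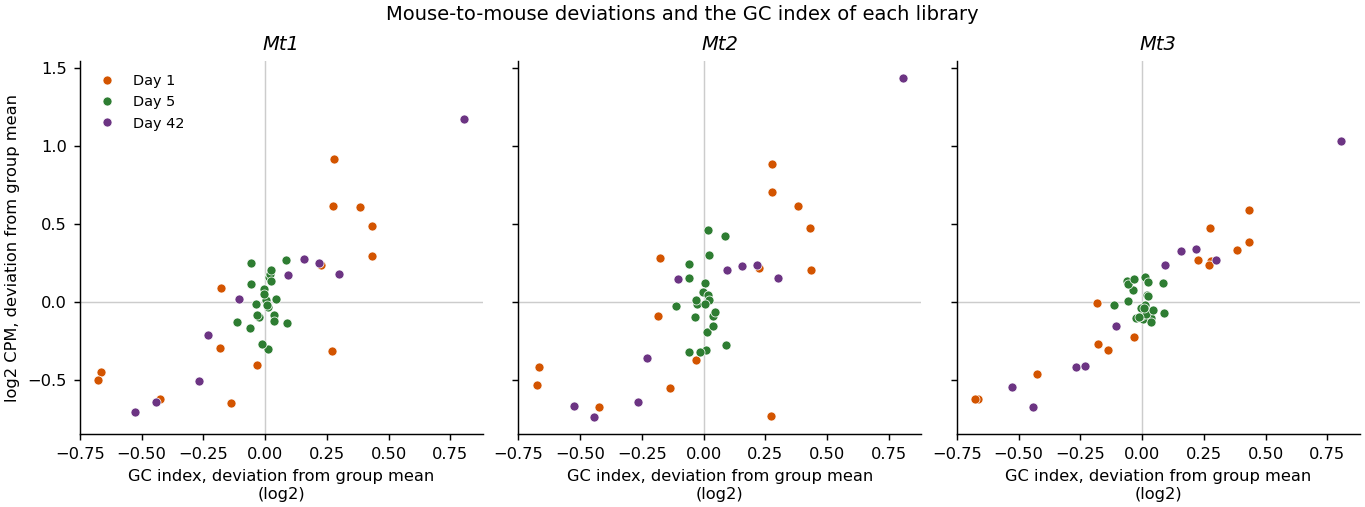
Deviation of log2 CPM from the group mean for Mt1, Mt2 and Mt3, on the vertical axis, against the deviation of the library's GC index from its group mean, on the horizontal axis (both log2). Each point is 1 mouse and colours mark the day. The Day 5 mice cluster near 0, and the Day 1 and Day 42 mice spread along a rising line that is tightest for Mt3, with an r of 0.933 over all 47 mice.

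The mean index on Day 1 was 0.0739 after FGF1 and -0.178 after vehicle, so it moved with the treatment there by less than its spread (SD 0.37 and 0.49). With the index as a covariate in the same edgeR fit, the Day 1 log2 FC was 1.16 for Mt1 (SE 0.15, adjusted p = 6.39e-09) and 1.5 for Mt2 (SE 0.19, adjusted p = 7.20e-09), beside 18.3% of genes called. For Mt3 it was 0.22 (SE 0.08, adjusted p = 0.0113), less than 0.49 without the covariate and again not called. Mt1 and Mt2 therefore rose on Day 1 with the index held fixed as well.

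On Day 5 against the non-diabetic vehicle mice, the same fit gave 0.46 for Mt1 (edgeR adjusted p = 0.00644), 0.62 for Mt2 (adjusted p = 0.00572, called) and 0.34 for Mt3 (adjusted p = 0.000253), with 1.97% of genes called. Against the diabetic ones it gave 0.36 for Mt1 (edgeR adjusted p = 0.0238), 0.47 for Mt2 (adjusted p = 0.0288) and 0.47 for Mt3 (adjusted p = 6.24e-07), with 3.22% called. On Day 42 the values were -0.35, -0.36 and -0.09 (edgeR adjusted p = 0.379, 0.532 and 0.756). The Day 42 minus Day 5 differences of Mt1 and Mt2, -0.80 and -0.98, passed in this fit (edgeR adjusted p = 0.0100 and 0.0196; 1.36% of genes called), and for Mt3 the Day 5 minus Day 1 difference turned from -0.19 to 0.11 (edgeR adjusted p = 0.386). The Day 42 minus Day 5 difference of Mt3 was -0.42 (edgeR adjusted p = 0.0119) and its Day 42 minus Day 1 difference -0.31 (edgeR adjusted p = 0.0218) compared with -0.68 without the covariate, and both were under the required size.

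The other genes of zinc handling did not move as 1 block on Day 1. Of 8 measured zinc exporters (the Slc30 family, which carry zinc out of the cytosol), 0 rose and 1 fell, with a median log2 FC of -0.09 against 0.01 over all genes, of which 11.5% were called upward and 8.05% downward. The one that fell was Slc30a1, the exporter of the plasma membrane and itself a known MTF1 target. It stood at 38.0 ± 4.21 CPM after FGF1 (SD, n = 10) and 58.5 ± 6.97 CPM after vehicle (SD, n = 4), a log2 FC of -0.60 (edgeR adjusted p = 1.85e-08). Mtf1 itself stood at 33.5 ± 2.43 against 32.9 ± 5.39 CPM (log2 FC 0.04, edgeR adjusted p = 0.663). MTF1 activity was not measured, and its part in the levels of Mt1 and Mt2 was not tested.

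Of 12 measured zinc importers (the Slc39 family, which carry zinc into the cytosol), 3 rose and 2 fell on Day 1, with a median log2 FC of 0.32. In the same comparison 11.5% of all genes were called upward and 8.05% downward. Slc39a14, an importer of zinc and iron known to rise in inflammation, stood at 112 ± 19 CPM after FGF1 and 42.7 ± 5.37 CPM after vehicle (log2 FC 1.40, edgeR adjusted p = 2.89e-16). Slc39a1 rose by a log2 FC of 1.06 and Slc39a10 by 0.71. Slc39a12, the importer typical of brain, fell from 113 ± 14 to 54.7 ± 7.19 CPM (log2 FC -1.06, edgeR adjusted p = 5.29e-14), and Slc39a8 had a log2 FC of -0.56. With the GC index as a covariate 1 importer fell instead of 2.

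Of the genes that carry iron and copper, 5 of 13 iron genes rose and 2 fell on Day 1, and 1 of 11 copper genes rose and 1 fell. Over all genes 11.5% were called upward and 8.05% downward, so the copper counts are near the background. Trf, the iron carrier transferrin, had a log2 FC of 2.23, Hmox1, which breaks down heme, 2.04, Steap3, a reductase of iron, 0.93, and Slc25a37, the iron importer of mitochondria, 0.87. The 2 that fell were Slc40a1 (ferroportin), the iron exporter of the cell surface, at -0.72, and Heph, an oxidase of iron, at -0.70. Slc31a2, a copper transporter of endosomes, had a log2 FC of 0.71, and Atp7b, a copper-exporting pump, -0.50. With the GC index as a covariate 4 iron genes rose and 3 copper genes rose.

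The Day 1 counts of the pathways known to raise metallothionein transcription stand beside 11.5% of all genes called upward and 8.05% downward. Differences between these lists, and their part in the levels of Mt1 and Mt2, were not tested. Of 11 measured genes of the STAT3 cytokine pathway, 7 rose and 0 fell, with a median log2 FC of 1.45. Socs3, the feedback inhibitor that STAT3 induces, stood at 68.1 ± 17.0 CPM after FGF1 and 3.04 ± 1.23 CPM after vehicle (log2 FC 4.5, edgeR adjusted p = 1.06e-21). Timp1, a protease inhibitor, had a log2 FC of 7.57, Osmr, the oncostatin M receptor, 3.31, Cebpd, a transcription factor, 2.18, and Stat3 itself 1.69.

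Of 16 measured genes of the glucocorticoid list, 2 rose and 5 fell on Day 1, with a median log2 FC of -0.34, and the upward count is near the 11.5% of all genes. Tsc22d3 (GILZ), a standard glucocorticoid target, had a log2 FC of -1.36, Sult1a1 -1.51, Hif3a -1.14 and Plin4 -1.03, while Fkbp5, a co-chaperone of the receptor, was at 0.73. The receptor gene Nr3c1 was not called (log2 FC -0.14, edgeR adjusted p = 0.302). Of 18 measured genes of NRF2, the regulator of antioxidant enzymes, and those enzymes, 6 rose and 1 fell, with a median of 0.01. Nfe2l2, which encodes NRF2, had a log2 FC of 1.25, Txnrd1, thioredoxin reductase, 0.84 and Gpx1, glutathione peroxidase, 0.71, whereas Nqo1, a standard NRF2 target, had -1.40.

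**Figure D5:**
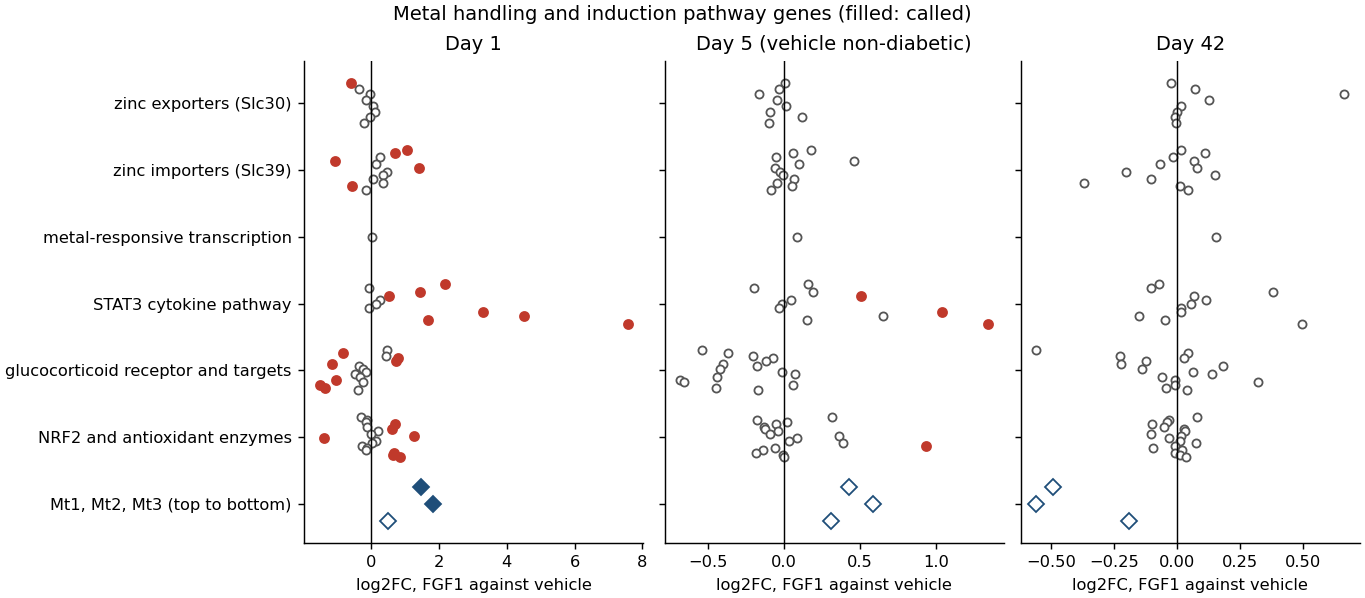
Log2 FC of FGF1 against vehicle for the genes of the zinc, STAT3, glucocorticoid and NRF2 lists and for Mt1, Mt2 and Mt3, by day. Each point is 1 gene and filled points are called, and the 3 panels have horizontal scales of their own. On Day 1 the STAT3 list has 7 of its 11 measured genes called upward and the glucocorticoid list 5 of 16 called downward, and on Day 42 no gene of these lists is called.

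Markers of cell types are given because in whole tissue more cells of a type and more RNA per cell cannot be told apart, and Mt1 and Mt2 are abundant in astrocytes. Of 10 astrocyte markers, 2 rose and 3 fell on Day 1, beside 11.5% of all genes called upward and 8.05% downward. Gfap, the filament protein of reactive astrocytes, stood at 1787 ± 231 CPM after FGF1 and 255 ± 26 CPM after vehicle (log2 FC 2.81, edgeR adjusted p = 1.08e-16), and Sox9 had a log2 FC of 1.10. Gjb6, a gap junction protein of astrocytes, had -1.46, Gja1 -0.77 and S100b -0.52. The summed level of the 10 markers ran from 4942 to 6071 CPM after FGF1 and from 4624 to 5364 CPM after vehicle.

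Genes of other cell type lists were also called on Day 1: 5 of 6 oligodendrocyte markers fell (Mog -1.62), 3 of 6 ependymal markers fell (Ccdc153 -2.33), 3 of 6 microglia markers rose and 1 fell (Tmem119 1.15, P2ry12 -0.66), 3 of 6 fibroblast and meningeal markers rose and 1 fell (Lum 2.24, Slc6a13 -2.71), 2 of 3 measured choroid plexus markers fell (Kcnj13 -3.51), 1 of 7 tanycyte markers rose and 2 fell (Adm 2.23, Col23a1 -1.07), 1 of 6 endothelial markers rose (Flt1 0.63), and 1 of 10 hypothalamic neuropeptide genes rose and 2 fell (Pomc 1.71, Npy -0.61). These counts stand beside 11.5% of all genes called upward and 8.05% downward, and those of the endothelial and neuropeptide lists are near that background or too small to be set apart from it. None of 6 neuron markers, 4 erythrocyte markers and 3 forebrain neuron markers was called by edgeR. The summed level of the 6 neuron markers was lower in every FGF1 mouse (3018 to 3733 CPM) than in any vehicle mouse (3886 to 4588 CPM). Among single genes, 6.81% of all had every FGF1 mouse below every vehicle mouse. Of the 6 markers 2 had a positive log2 FC, and the median was -0.14. The part of these changes in the levels of Mt1, Mt2 and Mt3 was not tested.

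On Day 5 fewer genes were called in all, 1.54% against the non-diabetic vehicle mice (1.31% upward) compared with 19.5% on Day 1, and the metal and induction lists had fewer calls as well. At that background a list of this length is likely to hold no call, so the counts of 0 say little about the lists. Against the non-diabetic vehicle mice, 0 of 8 zinc exporters, 0 of 12 zinc importers, 0 of 11 copper genes, 0 of 13 iron genes and 0 of 16 glucocorticoid genes were called by edgeR. Slc30a1 stood at 44.5 ± 2.94 CPM after FGF1 and 44.3 ± 3.62 CPM after vehicle. Of the STAT3 list 3 of 11 rose, with Timp1 at a log2 FC of 1.34, Osmr at 1.03 and Il6st, the shared receptor subunit gp130, at 0.51, and of the NRF2 list Slc7a11, the cystine transporter, rose by 0.93. With the GC index as a covariate 2 of the 11 STAT3 genes rose and 1 of the 16 glucocorticoid genes fell. Socs3 was not called (log2 FC 0.65, edgeR adjusted p = 0.0843), nor was Stat3 (0.15, edgeR adjusted p = 0.236).

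Against the diabetic vehicle mice of Day 5, Slc39a12 rose by 0.52, the iron uptake receptor Tfrc had -0.52, and 3 of 16 glucocorticoid genes fell (Plin4 -0.91, Sgk1 -0.76, Per1 -0.66), where 0.499% of all genes were called downward. With the GC index as a covariate Slc39a12 was not called, and 1 of 13 iron genes rose. Of the STAT3 list Timp1 (1.42), Osmr (0.76) and Il6st (0.53) rose against these mice as well, and of the NRF2 list Slc7a11 (0.93). Of the astrocyte markers, Gfap and Aqp4, the water channel of astrocyte endfeet, rose against both vehicle groups (Gfap 1.29 and 1.28, Aqp4 0.98 and 1.01), and the summed level of all 10 ran from 5429 to 5979 CPM after FGF1, above the 4753 to 4945 CPM of the non-diabetic and the 4635 to 5177 CPM of the diabetic vehicle mice. The summed levels of the zinc importers (664 to 704 against at most 649.8 CPM), the STAT3 list (663 to 751 against at most 660.0 CPM) and the NRF2 list (1742 to 1884 against at most 1738 CPM) also lay above both vehicle groups in every FGF1 mouse. Those of the zinc exporters and of the copper, iron and glucocorticoid genes overlapped both. A sum follows its most abundant genes, and how often such sums separate for other lists was not computed. Against the non-diabetic mice the median log2 FC was 0.02 for the importers, 0.16 for the STAT3 list and -0.03 for the NRF2 list, beside -0.01 over all genes.

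Genes of other cell type lists were called on Day 5 as well, where 1.31% of all genes were called upward against the non-diabetic and 2.36% against the diabetic vehicle mice. Of 6 oligodendrocyte markers 2 rose against both vehicle groups, among them Cnp (0.54 against the non-diabetic and 0.61 against the diabetic mice). Of 6 microglia markers 4 rose against the diabetic vehicle mice (median 0.53), among them Tmem119 (0.72), Csf1r (0.58) and Cx3cr1 (0.53), and 0 were called by edgeR against the non-diabetic ones (median 0.36), where the values of these 3 were 0.47, 0.41 and 0.39, under the fold threshold. Of 6 fibroblast and meningeal markers 2 rose against the non-diabetic vehicle mice (Lum 1.19, Slc6a13 1.02; median 0.75), and 0 were called by edgeR against the diabetic ones (median 0.59). Against the diabetic vehicle mice 1 of 6 ependymal markers rose (Dynlrb2 0.58) and 1 of 7 tanycyte markers fell (Dio2 -0.57). Against the non-diabetic ones 0 of these 2 lists were called by edgeR. The part of any of these lists in the Day 5 values of Mt1, Mt2 and Mt3 was not tested. On Day 42 edgeR called no gene of any list.

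The genes most like each member over all 47 mice, by Pearson's r of log2 CPM over the 12174 genes with a mean of at least 5 CPM, were not on the lists of metal genes. For Mt1 they were Notch1 (r = 0.953), Ralgds, Ddx54, Acsbg1, Lmna, Rplp0, Ppt2 and Isyna1 (r = 0.933). For Mt2 they were Ptbp1 (r = 0.946), Il4ra, Smox, Efemp2, Sec61a1, Sdc4, Sipa1 and Mafk (r = 0.927). For Mt3 they were Aamp (r = 0.904), Aldh2, Zer1, Cant1, Slc12a9, Sez6l2, Rcc2 and Dad1 (r = 0.853). These values mix treatment, day and preparation, and they are a description with no test. The r of Mt1 with Mt2 on this measure was 0.811, lower than that of all 8 genes named for either.

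Within groups, by the deviations from the group means over the same 47 mice, the closest gene to Mt1 and to Mt2 was the other one (r = 0.962). The next for Mt1 were Cotl1 (r = 0.891), Adrm1, Rplp1, Elob, Vgf, Gpx1, Slc2a1 and Rpl18. The next for Mt2 were Slc2a1 (r = 0.858), Adrm1, Pnpla2, Smox, Vgf, Ldb1, Mafk and Ppan. For Mt3 the closest were Fkbp8 (r = 0.963), Gnb2, Dmwd, Rtl8a, Csnk1g2, Atp5d, Tkt and Aamp (r = 0.940), each closer than Mt1 (r = 0.847) or Mt2 (r = 0.776). Slc2a1, the glucose transporter of the blood-brain barrier and astrocytes, Adrm1, a ubiquitin receptor of the proteasome, and Vgf, a neuropeptide precursor, stood on both the Mt1 and the Mt2 list. The deviations also carry the GC index, and apart from the relations among Mt1, Mt2 and Mt3 given above, likeness with the index removed was not computed.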

How the data were processed

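RNA of hypothalamic punches was sequenced as stranded mRNA libraries, 1 per mouse. The authors aligned the reads with STAR to what they call a Mus musculus reference, although the build name they give is that of a human build. The counting program and its strand setting are not given in the sources used here. The deposited table holds read counts per gene, not normalized, for 14221 genes in 47 libraries, and a second table pairs each library with a preparation code. Groups were taken from the labels. Every mouse was counted as 1 replicate, and no pair of libraries within a group agreed within sampling noise.

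The counts were tested with edgeR 4.0.16 (R 4.3.3): TMM normalization, 7 group means in 1 quasi-likelihood fit, and Benjamini-Hochberg adjustment over all genes. No gene was removed by the edgeR filter. CPM are TMM-scaled, and permutation tests were run on log2 of CPM plus 0.5. DESeq2 1.42.0 and limma 3.58.1 gave alternatives. The tests were checked on simulated data. The members, the lists and the tests were chosen with earlier results of these data known. From each list up to 4 called genes with the largest fold change were to be named per comparison, together with Mtf1, Slc30a1, Nr3c1, Stat3, Socs3 and Gfap, and for each member the 8 genes most like it. Fkbp5, S100b, Slc39a8, Slc40a1 and Heph fall outside this rule and were named after their values were seen. The cell type lists are given by counts with examples, so not every gene that the rule would name is reported here. Each member had at least 157 counts in every library. Promoter sequences are from RefSeq (GRCm38.p6), in which all 3 genes were matched by symbol. Protein sequences were not used here.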

Additional observations from a re-analysis of the deposited data

Results flagged for a closer look

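The FGF1 effect on Mt1 and Mt2 differed between days. For Day 5 minus Day 1 the difference of the log2 FC was -1.05 for Mt1 and -1.23 for Mt2, and for Day 42 minus Day 1 it was -1.97 for Mt1 and -2.37 for Mt2, each tested as a difference in the edgeR fit (adjusted p = 0.0106, 0.00897, 4.31e-05 and 1.72e-05). All 10 FGF1 mice of Day 1 were above all vehicle mice of that day for both genes.

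In 4 of 42 sets of mice, 1 mouse lay far from the others of its group. The rule flags about 1 in 20 separate sets by chance. These sets share mice and genes, so whether 4 is an excess cannot be judged. FGF1 replicate 4 of Day 42 was lowest in log2 CPM of Mt1, with a gap to the next mouse of 0.718 of the group's range, and lowest in Mt2, with a gap of 0.916. That library also had the lowest GC index of its group (-0.4485). FGF1 replicate 6 of Day 1 had the lowest Mt2 over Mt1 ratio (gap 0.591 of the range), and FGF1 replicate 1 of Day 42 the highest Mt2 over Mt3 ratio (gap 0.803).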

How the results depend on the processing

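No paired analysis was possible because each library came from a separate mouse and the replicate numbers were given in accession order. Of 282 values under alternatives other than leaving out 1 mouse, 273 kept their direction and their side of the threshold, 6 newly passed it and 3 turned, and the calls of Mt1 and Mt2 on Day 1 held in all of them. Mt2 on Day 5 against non-diabetic vehicle was called with voom sample weights (0.58, with 3.08% of genes called), with Day 5 alone (0.60) and with the GC index (0.62). Mt3 on Day 1 was called (0.49) with no required fold change, as were 45% of genes. The Day 42 minus Day 5 difference was called with the GC index for Mt1 (-0.80) and Mt2 (-0.98), and the Mt3 difference of Day 5 minus Day 1 turned to 0.11. With voom sample weights the Day 42 log2 FC turned to 0.078 for Mt2 and 0.18 for Mt3. The causes were not tested. Leaving out 1 mouse at a time, Mt1 and Mt2 on Day 1 stayed called. The log2 FC of Mt3 ran from 0.32 to 0.66 on Day 1, and the Day 42 minus Day 1 difference of Mt3 from -0.85 to -0.33, called in 7 and in 6 of these fits. On Day 42 Mt2 ran from -0.72 to 0.011 and Mt3 from -0.32 to 0.16, both turning without vehicle replicate 5. The differences of mean log2 CPM ran from 0.29 to 0.66 for Mt3 on Day 1, from -0.51 to 0.016 for Mt2 and from -0.23 to 0.16 for Mt3 on Day 42, and between the vehicle groups from 0.084 to 0.18 for Mt1 and from -0.12 to -0.078 for Mt3. The differences of mean log2 ratio against diabetic vehicle on Day 5 ran from 0.092 to 0.17 for Mt2 over Mt1, from -0.16 to -0.073 for Mt1 over Mt3 and from -0.071 to 0.10 for Mt2 over Mt3. Between the vehicle groups they ran from -0.0075 to 0.069, 0.19 to 0.28 and 0.19 to 0.35, and on Day 42 from -0.034 to 0.071, -0.30 to -0.21 and -0.33 to -0.15, in the same order.

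Counts of genes called moved by over 1.5 times as follows. For Day 5 against non-diabetic vehicle (219) they were 404 with quantile normalization, 136 with at least 10 counts in every library, 438 with voom weights, 370 with each day alone, 372 with merged vehicle groups, 661 with no required fold change and 112 after thinning to the lowest total. Against diabetic vehicle (406) they were 627 with quantile normalization, 204 with at least 10 counts, 1310 with no required fold change and 192 after thinning. For Day 1 (2776) they were 1609 with at least 10 counts, 6396 with no required fold change and 1772 after thinning. For Day 5 minus Day 1 (2247) they were 1439, 3784 and 1123 under the same settings, and for Day 42 minus Day 1 (2332) 3623 with no required fold change and 920 after thinning. For Day 42 minus Day 5 (102) they were 29 after thinning, 65 without the 2 deepest FGF1 libraries of Day 5, 193 with the GC index and 56 without FGF1 replicate 5 of Day 42. For Day 42 (0) they were 31 without FGF1 replicate 1 and 1 without FGF1 replicate 2.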
